A study of Mus musculus with 6 samples.

Results

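The small leucine-rich proteoglycans (SLRPs) are secreted matrix proteins built around a curved stretch of leucine-rich repeats, and 10 of their genes were followed in mouse articular cartilage: Bgn, Dcn, Aspn, Fmod, Lum, Prelp, Omd, Epyc, Ogn and Chad. They were taken by gene symbol from a table of 33971 genes, and all 10 were found and passed the filter on low counts with 20397 genes in total. The RNA sequencing compared cartilage of 2-month-old mice (n = 3 libraries) with that of 18-month-old mice (n = 3 libraries), all labelled WT (wild type), to follow expression over ageing. No treatment was given for either age, and the labels do not say whether a library came from 1 animal or from pooled animals, so the p-values measure the spread between these libraries. Levels are given as FPKM, which divides fragments by gene length and library total, and each fold change sets the 18-month level over the 2-month level.

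SLRPs bind fibrillar collagens and set the spacing and diameter of fibrils, and several of them bind TGF-beta or BMP ligands. Their classes differ in the sugar chains they carry: biglycan and decorin of class I carry chondroitin or dermatan sulfate, fibromodulin and lumican of class II carry keratan sulfate, epiphycan and osteoglycin form class III, and chondroadherin belongs to class IV. In cartilage they are made mainly by chondrocytes. Several, among them decorin, lumican, osteoglycin and asporin, are also made by other cells such as fibroblasts of tendon, capsule and synovium.

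All 10 SLRP transcripts were lower in aged cartilage. Each was called by edgeR's quasi-likelihood test (adjusted p below 0.05 by Benjamini-Hochberg over all genes tested, and a log2 fold change below -1), against 21.3% of all tested genes called lower and 36.3% called in either direction. None of the 10 had overlapping ages, whereas 34.6% of all tested genes lay below every 2-month library in all 18-month libraries. The median log2 fold change was -4.19 over the 10 genes and -0.02 over all tested genes. The summed FPKM of the family was 6135, 5055 and 6793 in the 2-month libraries and 368, 142 and 143 in the 18-month libraries. This sum did not overlap between ages (log2 difference -4.93, exact permutation test, two-sided p = 0.1, the smallest value that 3 libraries against 3 allow). The 10 genes took 1.46% to 1.93% of all counts at 2 months and 0.0715% to 0.157% at 18 months.

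**Figure D1:**
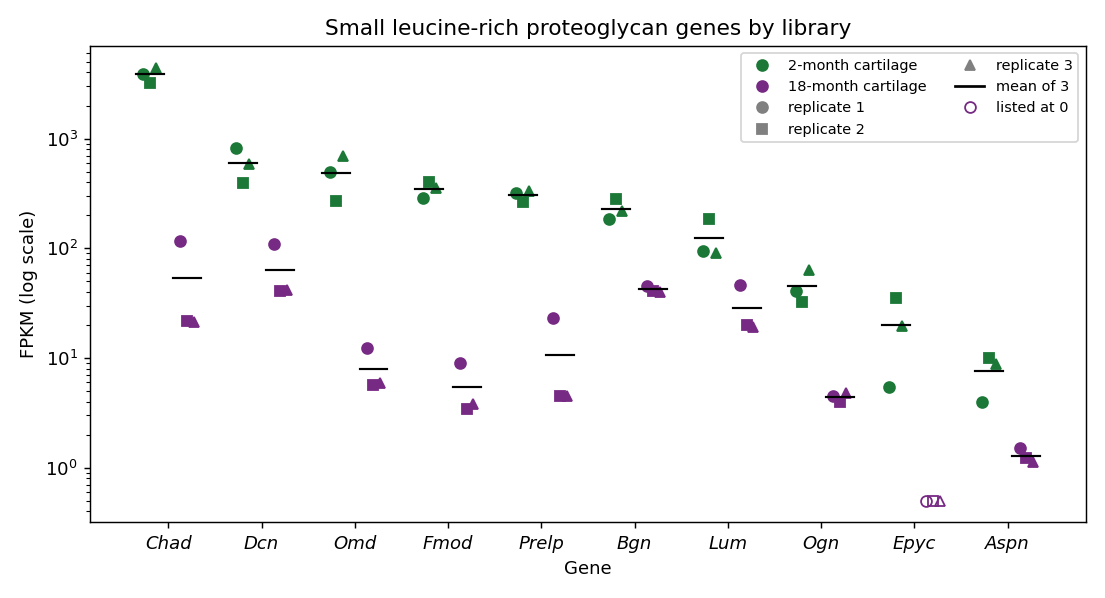
FPKM of the 10 SLRP genes (log axis) in each of the 3 libraries of 2-month (green) and 3 of 18-month cartilage (purple), with symbols for the replicate and a black line for the mean of 3 libraries. No gene has overlapping ages, and Epyc, listed at 0 in all 18-month libraries, is drawn as open symbols at the bottom.

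Marker transcripts of several cell types, though not of all, differed between ages in the same libraries. The 16 chondrocyte markers were all lower and fell by a median of 6.34 on the log2 scale, and together they took 7.25% to 8.36% of TMM-scaled counts at 2 months and 0.188% to 0.786% at 18 months. None was at 0 in all 3 libraries of an age, though Matn1 and Matn3 were at 0 in at least 1 of the 18-month libraries. The 10 neutrophil markers took 6.86e-04% to 0.334% of counts at 2 months and 3.68% to 4.14% at 18 months, and the 9 erythroid markers 0.0264% to 0.647% and 2.59% to 3.54%. None of the 10 neutrophil markers was called by edgeR (2 had an unadjusted p below 0.05), while DESeq2 called 9 and limma on log2(FPKM + 0.1) called 10. All 10 lay above every 2-month library at 18 months, as did 33.9% of all tested genes. By edgeR, 3 of the 9 erythroid and 3 of the 6 macrophage markers were called higher. None of the 6 osteoclast markers, the 8 B lymphocyte markers or the 1 tested adipocyte marker was called. Of 5 endothelial markers 1 was called higher, and of 6 tested skeletal muscle markers 4 were called lower. Osteoblast and osteocyte markers took 0.539% to 1.71% at 2 months and 0.337% to 0.345% at 18 months (3 of 11 called lower), and fibroblast and tendon markers 0.0638% to 0.158% and 0.0188% to 0.0352% (6 of 10 called lower, 2 higher). In such bulk tissue, fewer chondrocytes and less SLRP transcript per chondrocyte cannot be told apart, and the part that these markers played in the falls was not tested. Xist, from the inactive X chromosome, counted 88239 to 102417 at the younger age and 11 to 30 at the older, and 4 Y-linked genes together counted 33 to 59 and 12777 to 13492. The methods describe male mice, which the 2-month libraries go against, and age and the sex pattern cannot be told apart, also for the X-linked Bgn.

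Libraries of the same age were not equally alike. The closest pair was 18-month replicates 2 and 3. The median chi-square of the members' counts, over the value expected from counting alone, was 3.42 for that pair and 982 to 8324 for every other pair. The labels do not say whether these 2 libraries come from separate animals, so the 18-month spread may be too small. With their counts summed, all 10 genes were still called lower (median log2 fold change -3.99). Of the 9 SLRP genes detected at 18 months, 8 were highest in replicate 1, which stood above the mean of replicates 2 and 3 by 5.23-fold for Chad, 4.94-fold for Prelp, 2.51-fold for Dcn and 1.08-fold for Bgn. The chondrocyte gene Acan was 8.33-fold higher in that library. In 2-month replicate 2, markers of other cells stood out: neutrophil markers took 0.334% of TMM-scaled counts against 6.86e-04% and 0.00565% in replicates 1 and 3, osteoclast markers 0.386% against 0.0070% and 0.0810%, and osteoblast and osteocyte markers 1.71% against 0.539% and 0.610%. In the same library Epyc was 2.55-fold and Lum 1.81-fold above the mean of the other 2-month libraries, while Dcn and Omd were at 0.505 and 0.417 of it. Leaving out 2-month replicate 2 and 18-month replicate 1 together, all 10 genes were still called lower, with a median log2 fold change of -5.21. The 18-month group then held only the closely alike replicates 2 and 3.

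The sequences upstream of 8 members were matched in RefSeq's table for GRCm38.p6; Dcn and Lum are not shown. They are printed for Chad, the most abundant member at 2 months, for the 3 neighbours on chromosome 13 (Aspn, Omd and Ogn) and for the X-linked Bgn. Each is the 250 bases before the annotated start, 5′ to 3′ on the gene's strand. Capitals mark matches, on either strand, to TATAAA (the TATA box core), GGGCGG (GC box), ACAATG or ACAAAG (SOX core), TGTGGT (RUNX core), TGANTCA (AP-1) or CCAAT.
Chad (chr11:94564797-94565046, + strand): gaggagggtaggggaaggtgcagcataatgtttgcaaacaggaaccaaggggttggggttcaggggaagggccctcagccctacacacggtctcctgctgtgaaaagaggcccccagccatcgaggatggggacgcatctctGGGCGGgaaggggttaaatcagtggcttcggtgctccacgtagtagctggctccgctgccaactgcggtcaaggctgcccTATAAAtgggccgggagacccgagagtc
Omd (chr13:49582212-49582461, + strand): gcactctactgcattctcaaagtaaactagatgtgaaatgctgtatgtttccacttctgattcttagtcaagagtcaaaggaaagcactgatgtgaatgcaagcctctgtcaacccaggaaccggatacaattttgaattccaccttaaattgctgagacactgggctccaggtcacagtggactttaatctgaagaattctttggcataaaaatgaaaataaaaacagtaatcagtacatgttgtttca
Aspn (chr13:49544193-49544442, + strand): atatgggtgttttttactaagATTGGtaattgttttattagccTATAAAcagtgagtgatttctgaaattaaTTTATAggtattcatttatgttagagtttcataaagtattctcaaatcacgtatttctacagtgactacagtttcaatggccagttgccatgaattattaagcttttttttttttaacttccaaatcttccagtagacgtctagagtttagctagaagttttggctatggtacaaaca
Ogn (chr13:49607765-49608014, + strand): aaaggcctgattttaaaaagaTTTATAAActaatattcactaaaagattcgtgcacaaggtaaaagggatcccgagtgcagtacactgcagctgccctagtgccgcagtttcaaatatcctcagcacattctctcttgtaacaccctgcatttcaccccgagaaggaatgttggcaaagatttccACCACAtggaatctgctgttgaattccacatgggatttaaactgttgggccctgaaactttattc
Bgn (chrX:73483351-73483600, + strand): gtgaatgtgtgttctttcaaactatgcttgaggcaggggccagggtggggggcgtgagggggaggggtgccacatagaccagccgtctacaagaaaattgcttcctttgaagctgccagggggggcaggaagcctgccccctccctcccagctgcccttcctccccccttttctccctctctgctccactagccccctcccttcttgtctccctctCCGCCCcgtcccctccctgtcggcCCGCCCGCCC
Chad, whose level was highest at 2 months, had a TATAAA at position -28 from its start and a GGGCGG at -108, and a GC content of 60.4%. Omd, at 38.4% GC, held none of the 6 motifs. Aspn had TATAAA at positions -207 and, on the opposite strand, -178 and a CCAAT on the opposite strand at -229, and its GC content was 30.0%. Ogn (42.0% GC) held TATAAA at -227 and, on the opposite strand, at -229, which overlap, and a TGTGGT on the opposite strand at -65. Bgn (64.4% GC) held 3 GGGCGG matches on the opposite strand, at -34, -10 and -6. The median GC content of all 32851 windows was 52.4%, and 12.4% of windows held TATAAA, 32.7% GGGCGG, 25.2% ACAATG or ACAAAG, 14.0% TGTGGT, 6.75% TGANTCA and 33.8% CCAAT. Among the 8 matched members 3 held TATAAA, 2 GGGCGG, 1 a SOX core, 1 TGTGGT, 0 TGANTCA and 2 CCAAT. These matches are descriptions of letters, with no measure of binding in the data.

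Among class I genes, Bgn and Dcn were the abundant ones and Aspn was rare. Bgn, encoding biglycan (chrX:73483602-73495933, plus strand), had an FPKM of 186, 283 and 219 at 2 months and 45.5, 40.7 and 40.3 at 18 months. All 3 aged libraries were within a narrow range below every 2-month library. Its log2 fold change was -2.51 (SE 0.19, adjusted p = 9.55e-04 by edgeR). Dcn, encoding decorin, which decorates collagen fibrils (chr10:97479609-97518143, plus strand), had 820.3, 390.0 and 582 FPKM and then 108, 41.1 and 41.8. Replicate 1 was the highest of its age at both 2 and 18 months, and the groups did not overlap (log2 fold change -3.34, SE 0.55, adjusted p = 0.0052 by edgeR). Aspn, encoding asporin, which binds collagen and TGF-beta (chr13:49544443-49567565, plus strand), had 4.003, 9.98 and 8.82 FPKM and then 1.502, 1.22 and 1.13. The 2-month libraries spread more widely than the 18-month ones (log2 fold change -2.63, SE 0.36, adjusted p = 0.0031 by edgeR). The FPKM of Dcn and Bgn rest on merged exon lengths 3.32 and 2.52 times their longest coding transcript, so their levels per coding kilobase are higher relative to the other members.

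Class II fell further for 3 of its 4 genes. Fmod, encoding fibromodulin (chr1:134037254-134048277, plus strand), had 285, 402 and 355 FPKM at 2 months and 9.02, 3.42 and 3.81 at 18 months. It was 68.0-fold lower in aged cartilage (log2 fold change -6.09, SE 0.49, adjusted p = 0.0011 by edgeR). Omd, encoding osteomodulin, a keratan sulfate proteoglycan of mineralised tissue (chr13:49582462-49592822, plus strand), had 493, 272 and 691 FPKM and then 12.4, 5.60 and 5.93. It was 65.5-fold lower (log2 fold change -6.03, SE 0.59, adjusted p = 0.0015 by edgeR), and 2-month replicate 2, its lowest young library, was still far above every aged one. Prelp, encoding a heparin- and collagen-binding protein (chr1:133910304-133921414, minus strand), had 316, 263 and 330 FPKM and then 23.1, 4.48 and 4.50. Its aged mean rested on replicate 1. The log2 fold change was -4.93 (SE 0.80, adjusted p = 0.0049 by edgeR) with that library and -6.14 without it. Lum, encoding lumican (chr10:97565128-97572703, plus strand), had 93.3, 183 and 91.0 FPKM and then 46.4, 20.1 and 19.2. Its log2 fold change was -2.17 (SE 0.44, adjusted p = 0.010 by edgeR), and its lowest young library stood 1.96 times above its highest aged one.

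The class III genes Epyc and Ogn were, with Aspn, the members of lowest mean FPKM at both ages. Epyc, encoding epiphycan, a proteoglycan of growing cartilage (chr10:97644068-97682454, plus strand), had 772, 5232 and 2787 counts at 2 months (5.48, 34.9 and 19.4 FPKM) and 0 in all 18-month libraries. Against a floor of 3 counts per library it was at least 1133-fold lower (adjusted p = 0.0044 by edgeR), and at least 747-fold lower without 2-month replicate 2, its highest library. Ogn, encoding osteoglycin, also named mimecan (chr13:49608046-49624501, plus strand), had 41.1, 32.3 and 63.3 FPKM and then 4.49, 4.001 and 4.82. The aged libraries were close to each other, and the log2 fold change was -3.45 (SE 0.32, adjusted p = 0.0013 by edgeR).

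Chad, encoding chondroadherin, a class IV protein that binds collagen II and integrin and is typical of cartilage (chr11:94565047-94569127, plus strand), was the most abundant SLRP in every 2-month library. Its FPKM was 3891, 3185 and 4434 at 2 months and 117, 21.9 and 21.1 at 18 months. It was 77.6-fold lower (log2 fold change -6.28, SE 0.92, adjusted p = 0.0037 by edgeR), and -7.54 on the log2 scale without 18-month replicate 1, which held 5.23 times the mean level of the other aged libraries.

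**Figure D2:**
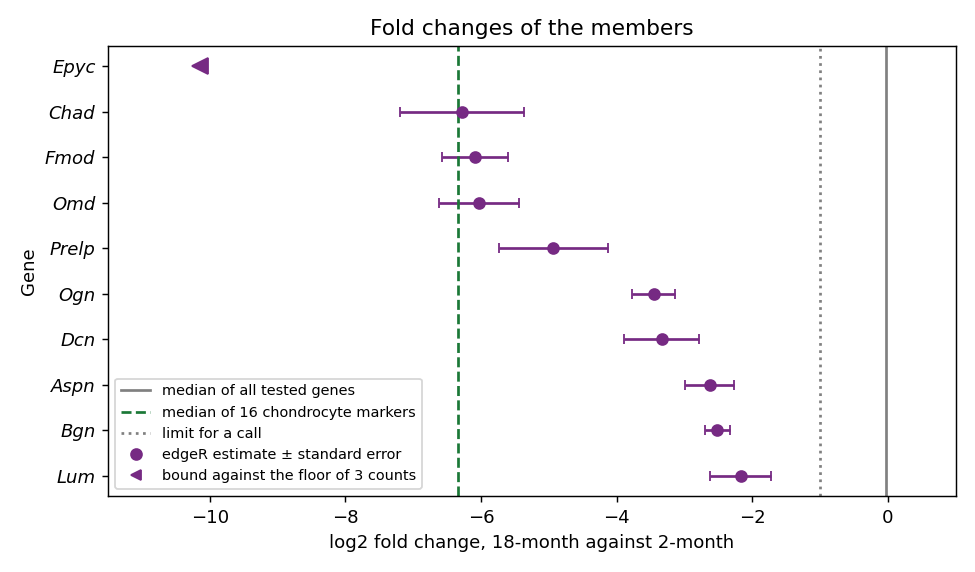
The log2 fold change (18-month against 2-month, horizontal axis) of each SLRP gene with a standard error worked out from edgeR's F statistic, and for Epyc the bound against the floor of 3 counts. All 10 genes lie left of the limit for a call, and Chad, Fmod and Omd lie near the median of the 16 chondrocyte markers, while Lum, Bgn and Aspn fell less.

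By mean FPKM at 2 months the order was Chad, Dcn, Omd, Fmod, Prelp, Bgn, Lum, Ogn, Epyc and Aspn. Chad stood apart from Dcn, Bgn from Lum and Lum from Ogn, and every other pair of neighbours in this order overlapped between libraries. At 18 months the order was Dcn, Chad, Bgn, Lum, Prelp, Omd, Fmod, Ogn, Aspn and Epyc, in which Ogn stood apart from Aspn, and Aspn from Epyc, and the other neighbours overlapped. The 18-month ranges of Dcn (63.7 ± 38.6, SD, n = 3), Chad (53.3 ± 55.1) and Bgn (42.2 ± 2.92) thus overlapped across libraries. Within each 18-month library Dcn was above Bgn, at 108 against 45.5, 41.1 against 40.7 and 41.8 against 40.3 FPKM. Chad was above both in replicate 1 and below both in replicates 2 and 3.

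The falls were unequal, so the make-up of the family changed. By share of summed FPKM, Chad went from 63.9% ± 1.21 (SD, n = 3) at 2 months to 20.7% ± 9.65 at 18 months. Dcn went from 9.88% ± 3.05 to 29.2% ± 0.33, Bgn from 3.95% ± 1.43 to 23.1% ± 9.26 and Lum from 2.16% ± 1.27 to 13.4% ± 0.73. Their ages did not overlap, but the share of all genes that would do so by this measure was not worked out. The family sum itself fell (log2 difference -4.93), so any gene that fell less than the sum rises by it. The share of Fmod went from 5.94% ± 1.76 to 2.51% ± 0.14 and that of Omd from 7.86% ± 2.40 to 3.82% ± 0.40. That of Prelp overlapped between ages by FPKM, though not per coding kilobase. These shares had no test: each is a part of the same sum, so a rise of some fixes a fall of others. Chad was the most abundant member in each young library, Dcn in 18-month replicates 2 and 3, and Chad again in 18-month replicate 1. Per coding kilobase, in place of FPKM, Dcn made up 25.2% ± 6.59 and then 47.9% ± 3.72 of the family, and Chad 49.5% ± 2.76 and then 10.4% ± 5.67, and Dcn then ranked first in all 3 18-month libraries, replicate 1 included.

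**Figure D3:**
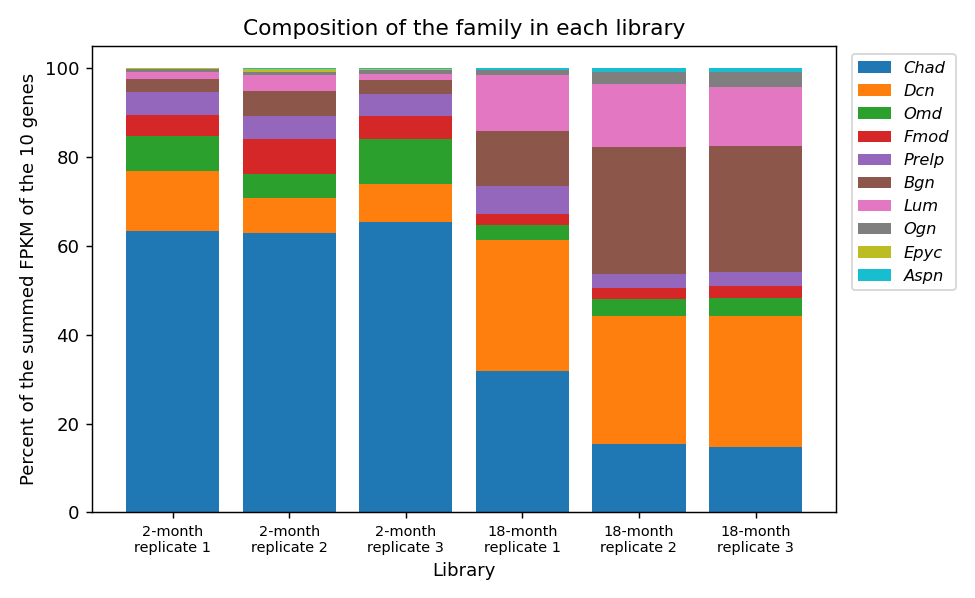
Stacked bars of the percent of the summed FPKM of the 10 SLRP genes in each library, in order of their 2-month mean level. Chad takes 63.0% to 65.3% of each 2-month bar and 14.8% to 31.8% of the 18-month bars. Dcn, Bgn and Lum each take more of every 18-month bar than of any 2-month bar.

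Compared within a library, the ratio of one member to another did not overlap between ages for 31 of 45 pairs (68.9%), near the 67.3% of all pairs of tested genes. A pair of sets of 5 can be read from the values: Chad, Fmod, Omd, Prelp and Epyc, each below -4.5 on the log2 scale, and Bgn, Dcn, Aspn, Lum and Ogn. All 25 pairs across these sets were apart, 6 of the 10 pairs within the first were apart as well, and all 10 pairs within the second overlapped. The sets were chosen after their values were seen, so their counts carry no test.

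Set against a list of chondrocyte markers within each library, the members divided. As a percent of the summed CPM of the 16 markers, Bgn was 2.12 ± 0.36 (SD, n = 3) at 2 months and 11.1 ± 6.30 at 18 months, and Lum 0.455 ± 0.18 and 2.43 ± 0.75. Aspn was 4.74-fold and Dcn 2.31-fold higher at 18 months by the same measure, and none of these 4 genes overlapped between ages. Since the marker sum itself fell, 89.8% of all tested genes were higher in every 18-month library by this measure, so a rise by it was shared with most genes. Chad was 9.86 ± 1.75 and then 2.34 ± 0.32, and Fmod, Omd, Prelp and Epyc were likewise lower without overlap, as were 1.56% of all tested genes, while Ogn overlapped. Of the 16 markers, Prg4 had the highest FPKM at 18 months (1389, 272 and 266) and the smallest fall. Its log2 fold change was -3.10, against the marker median of -6.34. Chad (-6.28), Fmod (-6.09), Omd (-6.03) and Prelp (-4.93) fell by less than that median, so their lower ratios were not a fall beyond the median marker. The division turned with the denominator. Relative to Col2a1 alone, Fmod was 1.92-fold, Omd 1.84-fold and Prelp 3.72-fold higher at 18 months without overlap, as were Bgn, Lum, Aspn, Dcn and Ogn, and Chad overlapped (1.45-fold higher). By that ratio 93.9% of all tested genes were higher without overlap and 0.951% lower, among them Epyc, which had 0 counts at 18 months. These ratios were not tested.

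**Figure D4:**
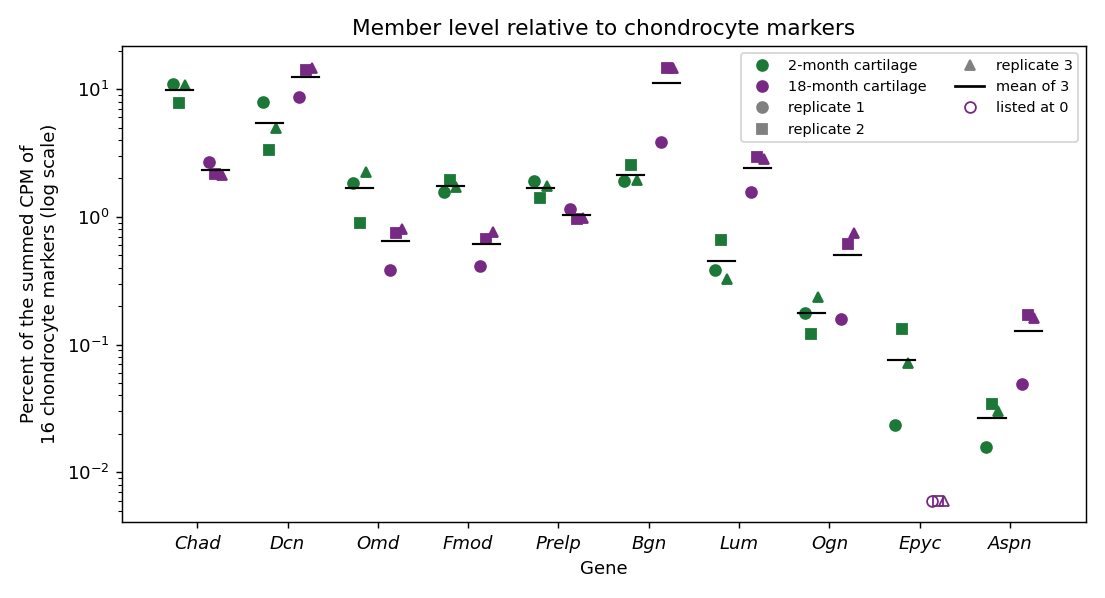
CPM of each SLRP gene as a percent of the summed CPM of 16 chondrocyte markers (log axis) by library, with means of 3 as black lines and open symbols for Epyc at 0. Bgn, Lum, Aspn and Dcn lie higher in all 18-month libraries, Chad, Fmod, Omd and Prelp lower, and Ogn overlaps. Relative to Col2a1 alone, Fmod, Omd and Prelp lie higher instead and Chad overlaps.

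Most members lie in clusters of related genes on GRCm38, with positions identical in GENCODE M21 for all 10. On chromosome 13 Ecm2 (-5.11), Aspn (-2.63), Omd (-6.03) and Ogn (-3.45) follow each other, so the deepest log2 fold change stood beside shallower ones within 119.7 kilobases, and Nol8 and Iars beyond them were at 0.06 and -0.21. On chromosome 1 Optc, Prelp (-4.93) and Fmod (-6.09) were lower, and Btg2 next to them was called higher (1.197). On chromosome 10 Dcn, Lum and Epyc lay in a row with Kera, which failed the filter on counts, and Atp2b1 beyond them was called lower (-1.62). Chad lies within Acsf2 (-1.98), on the other strand, and Aspn, Omd and Ogn within Cenpp, which was called higher (1.84) and had 134 to 178 counts at 2 months and 628 to 714 at 18 months. The paper describes a strand-specific library, but the counting is not stated to use strand. At 18 months these Cenpp counts were above the 171 to 238 of Aspn, near the 646 to 790 of Ogn and below the 793 to 1877 of Omd. Acsf2 had 960 to 1278 counts at 18 months, below the 2262 to 13203 of Chad. These are overlaps of gene spans, and exon bases shared by the genes were not worked out. The counts above therefore do not measure how many reads could have been given to the wrong gene, which was not tested.

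**Figure D5:**
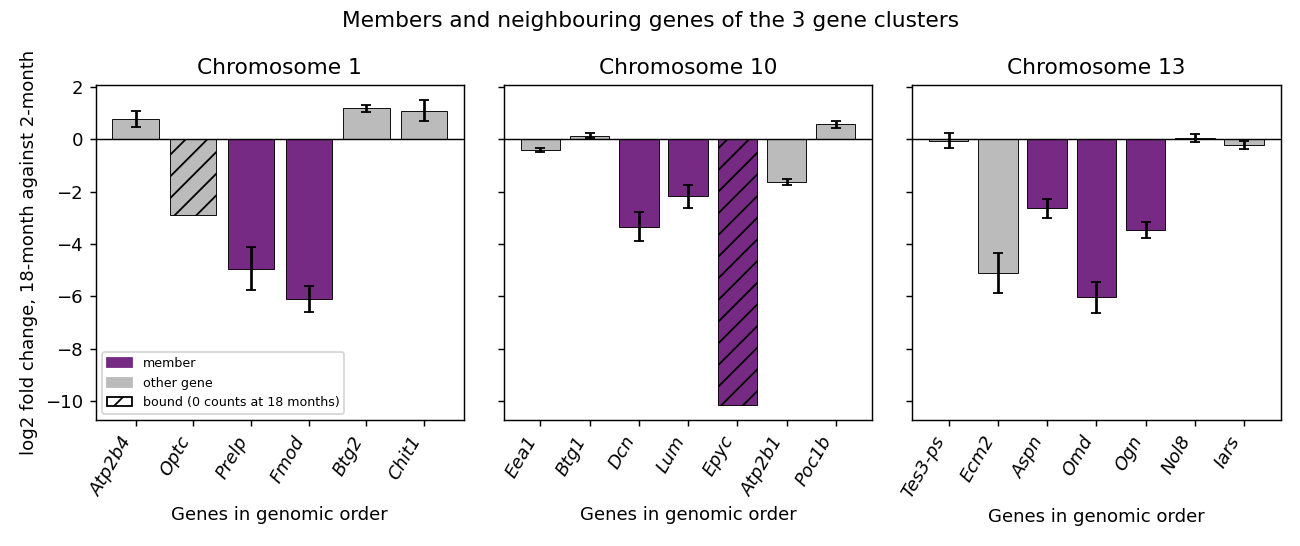
Bars of the log2 fold change with standard error for genes in genomic order around the 3 SLRP clusters, members in purple, other genes in grey, and hatched bars for bounds against 3 counts. Bars of neighbouring members differ in length, and the genes beyond the clusters lie between -1.62 and 1.197.

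Genes that build, bind or cleave SLRPs were described from lists of such genes. Of 7 tested relatives of the family 3 were called lower: Ecm2 (61.1, 42.0 and 80.3 FPKM, then 3.93, 0.909 and 0.893), Chadl (log2 fold change -6.40) and Optc, with 22 counts or fewer. Of 10 enzymes of the glycosaminoglycan linker and dermatan sulfate, 7 were called lower, with Xylt1, which adds the first xylose, at 58.8 FPKM and then 5.29 (log2 fold change -3.57). Of 7 keratan sulfate enzymes 2 were lower and 2 higher, with Chst1, a sulfotransferase, at -3.37 and B4galt1, a galactosyltransferase, at 1.65. Tpst1 and Tpst2, which sulfate tyrosines, as in fibromodulin and osteomodulin, were called in opposite directions (-1.83 and 1.25).

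Of 11 genes of fibrillar collagens and collagen VI, 9 were called lower. Col2a1, the main collagen of cartilage, had the largest fall (log2 fold change -7.20), and Col1a1, at 29.3, 1420.3 and 60.0 FPKM and then 285, 279 and 286, was not called with all libraries. That rested on 2-month replicate 2: without it all 11 were called, with Col1a1 and Col1a2 higher at 18 months (log2 fold changes 2.56 and 2.66, adjusted p = 0.0018 and 0.0014 by edgeR). Of 8 TGF-beta and BMP genes 5 were lower, with Tgfb3 at -3.99 and the co-receptor Tgfbr3 at -2.50. Among 9 receptors 3 were lower and 1 higher: Lrp1 was at -2.59 and Tlr2, which senses soluble biglycan, at 1.86, while Itgb1, the most abundant, was not called (-0.48). Of 10 proteinases 3 were lower, with Mmp13, a collagenase, at 562 FPKM and then 206 (log2 fold change -1.50). Tll1, a procollagen proteinase, was at -4.20 (SE 1.31, adjusted p = 0.040 by edgeR). Its level was low throughout, at 0.506, 0.452 and 0.539 FPKM and then 0.0752, 0.0 and 0.0096. Shares of called genes in these lists are read against 21.3% lower and 14.9% higher among all tested genes.

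The tested gene whose values were most like those of each member was taken by the smallest root mean square difference of centred log2 CPM over the 6 libraries. It was Clec3a for Prelp (0.115), Slc35f1 for Fmod (0.149), Peg3 for Chad (0.149), Gpld1 for Omd (0.241), Gm21983 for Epyc (0.498), C1qtnf4 for Dcn (0.139), Gm47435 for Bgn (0.0806), Gm42509 for Lum (0.139), Rab15 for Ogn (0.168) and Stx1a for Aspn (0.230). These log2 CPM used a prior count of 2, which shrinks differences at low counts. Log2 fold changes from the test could therefore differ within a pair. Slc35f1 was at -7.07 against -6.09 for Fmod, and Gm47435 at -3.00 against -2.51 for Bgn, while Clec3a (-4.86) was near Prelp (-4.93).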

How the data were processed

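Poly(A) RNA of mouse articular cartilage was sequenced as 3 libraries per age. The authors deposited whole-number read counts per gene without normalization, and FPKM values, which were scaled by the authors by gene length and library total. The submitters' processing notes name cutadapt 1.9, HISAT2 2.0.4, UMI-tools, StringTie 1.3.4d, DESeq2 and edgeR, and the genome build is not given in the sources used here. Of the 33971 genes, 33865 were found in GENCODE M21 (GRCm38), and 30925 of them had identical coordinates there. The libraries held 48171507 to 59085179 counts, and 0 columns of per-library values were left unused. Each standard error (SE) is the size of the log2 fold change over the square root of edgeR's F statistic, so it includes the spread between libraries.

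Genes were tested with edgeR 4.0.16 in R 4.3.3 (TMM, filterByExpr, quasi-likelihood test) on all libraries without a replicate block, with Benjamini-Hochberg adjustment over 20397 genes. A gene was called at an adjusted p below 0.05 and a log2 fold change beyond 1 in size, the limits given in the paper. Alternatives used limma 3.58.1 and DESeq2 1.42.0, other size factors, filters and pseudocounts, TPM, and leaving out each library; an adjusted p that DESeq2 gave as NA was left as NA. Summing 18-month replicates 2 and 3, leaving out 2-month replicate 2 with 18-month replicate 1, counts per coding kilobase and levels relative to chondrocyte genes were added after seeing the data. On simulated data with log2 effects of 2 and 4, edgeR recovered 35 of 100 and 83 of 100 changed genes with 5 false calls among 20397 genes. On the same data DESeq2 recovered 77 and 95 with 133 false calls, and limma 42 and 88 with 10 false calls. Python 3.11.15 and matplotlib 3.10.9 drew the figures.

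Genes named are the 10 members, of each list the most abundant gene and the called genes with the largest rise and fall, the gene most like each member, and nearest genomic neighbours. Chadl, Col1a1, Cenpp and the chondrocyte gene Acan were named after their values were seen. The members and lists were chosen with earlier results of these data known. The samples' replicate numbers do not pair them: the correlations of same-numbered deviations from the age means were 0.034, 0.044 and -0.024.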

Additional observations from a re-analysis of the deposited data

How the results depend on the processing

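Each of the 10 SLRP genes was called lower under all 20 alternative settings, 200 in total. Most settings kept edgeR's quasi-likelihood test with other size factors, filters, libraries or a replicate block, and the only other tests were DESeq2 and limma. The highest Benjamini-Hochberg adjusted p was 0.0426 by edgeR, for Lum without 1 library. The median log2 fold change of the family ranged from -4.73 to -3.68 over the 13 alternatives that used every library, was -5.21 without 2-month replicate 2 and 18-month replicate 1 together, and ranged from -5.03 to -3.97 when 1 library was left out. Fitting the replicate number as a block called 6032 genes in place of 7401, and all 10 members stayed called (median -4.39); it changed no call of a member. The number of all genes called higher moved from 3047 to 4931 without 2-month replicate 2 and 18-month replicate 1, and to between 2095 and 5007 when 1 library was left out; the number called lower was 2217 with limma on log2(FPKM + 1) against 4354. The list of related SLRP genes had 5 called with DESeq2 and with limma on log2(TPM + 0.1) against 3, and the tyrosine sulfation enzymes 1 with the latter against 2. Another length scale moved the shares of the family: the difference between ages, in percentage points, was 22.7 for Dcn per coding kilobase; 0.259 for Aspn by CPM and 0.235 per coding kilobase; -5.77 for Fmod by CPM; 5.76 for Lum by CPM and 4.91 per coding kilobase; and -3.49 for Prelp by CPM. By FPKM these differences were 19.3 for Dcn, 0.555 for Aspn, -3.43 for Fmod, 11.2 for Lum and -0.875 for Prelp. That of Ogn was 1.72 by FPKM, 0.720 by CPM and 0.616 per coding kilobase, and on the last scale its ages overlapped. The cause of these moves was not tested. On the TPM scale all tested genes had a median of -0.37, against -0.02. With 3 libraries against 3, no permutation p can go below 0.1, and 0 counts of Epyc give only a bound.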
